A study of Mus musculus with 16 samples.

Results

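Astrocyte marker genes were followed in bulk RNA from mouse CA1, a subfield of the hippocampus. The 10 genes Gfap, Aqp4, Slc1a2, Slc1a3, Aldh1l1, Aldoc, Gja1, Gjb6, Sox9 and S100b were taken by symbol from the deposited expression table, out of 17986 genes present in both blocks of that table. All 10 were among the 11892 genes tested, each with at least 1 FPKM (fragments scaled to transcript length and to library size) in at least 2 libraries. The mice were males of the C57Bl6 strain aged 3 to 6 months, labelled wild type (WT) or Neil3-/- (KO). Neil3 encodes a DNA glycosylase of base excision repair. Home cage mice had no intervention and gave 2 WT-labelled and 2 KO-labelled libraries. Exploration mice were trained for 1 week, 20 min per day in an open field with sides of 50 cm. They were killed 20 min after training ended and gave 3 WT-labelled and 3 KO-labelled libraries. The brains were frozen without perfusion and cut at 8 µm, and CA1 was taken with a laser dissection microscope. The labels name separate samples, so the p-values measure the spread between these samples. The 6 samples labelled with the learning condition were not analysed here.

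Astrocytes are glia whose fine processes surround synapses and blood vessels. They take glutamate and potassium from the extracellular space, move water through channels at their endfeet, store glycogen and pass metabolites to neurons, and are coupled to each other by gap junctions. In the hippocampus Gfap, an intermediate filament of the astrocyte skeleton, is the usual label of these cells, and its level is known to rise when astrocytes react to injury. Most of the 10 genes are enriched in astrocytes without being exclusive to them: S100b is also made by oligodendrocyte lineage cells and Slc1a2 transcripts are also found in some neurons.

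Neil3 RNA was higher under the KO label than under the WT label, the reverse of what the labels alone would lead to. It was listed at 0 FPKM in 4 of the 5 WT-labelled libraries and at 0.05 FPKM in the other one, and it lay between 8.35 and 15.22 FPKM in the KO-labelled libraries. A value per gene does not show which part of the gene was read or whether the RNA is functional. Whether the labels are swapped was not tested. Groups are therefore named by their labels throughout, and every direction between genotypes below is a direction between labels. The deposited values sum to between 405722 and 466710 FPKM per library, and the spacing of low values put the depth at roughly 18560000 to 19920000 fragments. Summed markers of neurons lay between 3752 and 4141 FPKM, far above the summed astrocyte markers, which lay between 178.1 and 313.3 FPKM. Markers of choroid plexus and ependyma set 3 libraries apart, all WT-labelled: they summed to 236.8 FPKM in home cage library 1, and to 132.8 and 109 FPKM in exploration libraries 1 and 2, against 9.88 to 18.25 FPKM in the other libraries. Results that rest on these 3 libraries are also given without them, a setting chosen after seeing the data. Home cage libraries make up 1 block of the table and exploration libraries the other, so environment and block cannot be told apart.

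Promoter windows are shown for 3 genes whose levels the results turn on. Each window runs from 250 bases before to 50 bases after a start in RefSeq (GRCm38.p6). Windows of 8 of the 10 genes were searched, with 2 starts for Aldoc. Capitals mark 2 motifs searched on both strands: the STAT motif TTCNNNGAA, and the nuclear factor I (NFI) motif TTGGC, which reads GCCAA where it lies on the other strand. These 2 motifs overlap nowhere in the windows shown. STAT3 and NFI factors are known regulators of astrocyte genes.
Gfap, chr11:102897151-102897450, minus strand: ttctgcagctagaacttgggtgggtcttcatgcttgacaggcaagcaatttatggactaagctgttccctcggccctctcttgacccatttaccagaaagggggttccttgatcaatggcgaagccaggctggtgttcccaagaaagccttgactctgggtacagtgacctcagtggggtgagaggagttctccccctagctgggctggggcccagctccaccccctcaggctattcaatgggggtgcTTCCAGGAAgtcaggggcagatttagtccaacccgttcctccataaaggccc
Aldoc, second start, chr11:78323948-78324247, plus strand: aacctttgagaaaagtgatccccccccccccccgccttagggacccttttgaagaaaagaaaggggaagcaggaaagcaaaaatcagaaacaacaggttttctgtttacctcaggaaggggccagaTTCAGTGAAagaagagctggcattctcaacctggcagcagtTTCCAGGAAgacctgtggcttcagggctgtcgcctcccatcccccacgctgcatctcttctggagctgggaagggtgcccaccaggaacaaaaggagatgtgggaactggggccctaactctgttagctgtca
S100b, chr10:76253586-76253885, plus strand: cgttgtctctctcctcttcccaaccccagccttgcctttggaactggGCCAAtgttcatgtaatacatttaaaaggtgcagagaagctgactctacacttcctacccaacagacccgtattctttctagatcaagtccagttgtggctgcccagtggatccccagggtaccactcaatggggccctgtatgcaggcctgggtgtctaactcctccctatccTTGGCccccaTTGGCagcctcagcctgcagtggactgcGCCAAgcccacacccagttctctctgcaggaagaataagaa
The Gfap window held 1 STAT match and the second Aldoc window held 2, with no NFI motif in either. The first Aldoc window, not shown, was the reverse, with 1 NFI motif and no STAT match. The S100b window held 4 NFI motifs and no STAT match. In the S100b, Slc1a3 and Gja1 windows, the bases just after the start were not found in a GENCODE transcript of the gene. In the other windows they were. Over the 9 windows of the 8 genes, the STAT motif was in 3 and the NFI motif in 3. Among all 32851 RefSeq promoter windows of the same length, 8.3% held the STAT motif and 46.7% held the NFI motif. The SOX core ACAAT was also searched and was in 2 of the 9 windows and in 31% of all windows. A match is a run of letters and was not tested as a binding site. Whether these motifs bear on the levels of the genes was not tested either.

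Levels can be compared roughly between the genes because FPKM is scaled to transcript length. That length is uncertain where the listed transcripts differ, from 1957 to 11595 nt for Slc1a2 and from 1197 to 5054 nt for Aqp4. Aldoc, the brain isoform of the glycolytic enzyme aldolase, stood highest with a mean of 98.19 FPKM over the 10 libraries. The glutamate transporters Slc1a3 (GLAST) and Slc1a2 (GLT-1) followed at 38.4 and 36.57 FPKM, and their order held in only 7 of 10 libraries. S100b, a calcium-binding protein, and Gfap came next at 28.5 and 25.41 FPKM, in that order in 8 of 10 libraries. The gap junction proteins Gja1 (connexin 43) and Gjb6 (connexin 30) had means of 13.57 and 6.991 FPKM, with Gja1 above Gjb6 in every library. The water channel Aqp4 had a mean of 5.516 FPKM, below Gjb6 in 9 of 10 libraries. Aldh1l1, a folate enzyme much used to label astrocytes, and Sox9, a transcription factor of the glial lineage, were lowest at 3.165 and 2.589 FPKM, in that order in 8 of 10 libraries. Neighbours in this order differed by less than their spread over libraries for Slc1a3 and Slc1a2, whose SDs were 6.92 and 7.1 FPKM. The same holds for S100b and Gfap, whose SDs were 5.93 and 8.29 FPKM. At the estimated depth, Aldoc rested on 2655 to 4820 fragments per library, while Aldh1l1 rested on 134 to 215 and Sox9 on 145 to 249.

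Gfap was also the most variable of the 10 genes, with a coefficient of variation of 32.6% over the libraries and a 3.00-fold range. The other 9 had coefficients between 14.5% (Gja1) and 22.1% (Aqp4). The genes tended to be low and high in the same libraries. Home cage WT-labelled library 1 held the lowest value of 7 genes and library 2 of the same group the lowest of the other 3. Both of these libraries, and exploration WT-labelled library 3, were below the gene's own mean for all 10 genes. At the other end, home cage KO-labelled library 2 held the highest value of 5 genes and exploration KO-labelled library 3 of 4 genes.

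**Figure D1:**
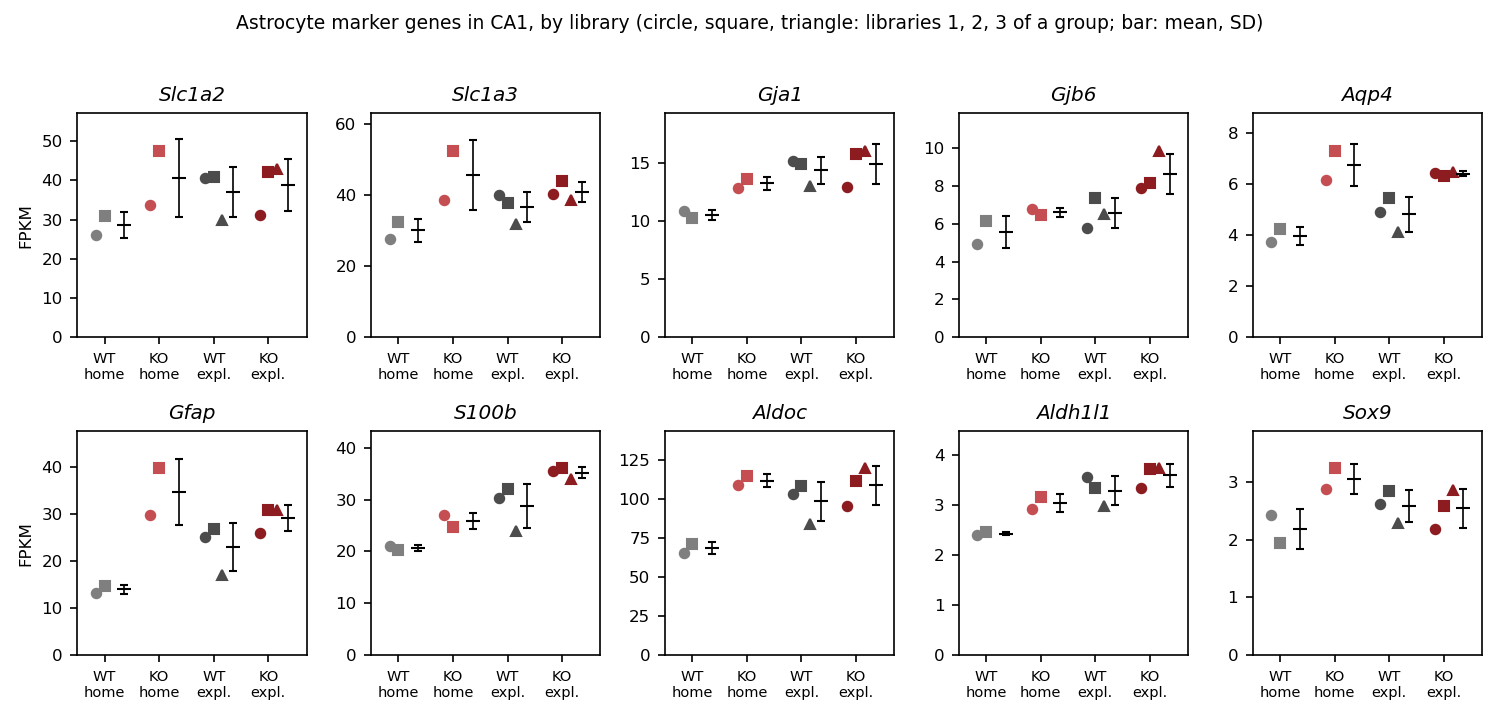
FPKM of each astrocyte marker gene (vertical axis, starting at 0 in each panel) in the 10 libraries, by genotype label and environment. Points are libraries, bars are group means and error bars are SDs (n = 2 in the home cage, n = 3 after exploration). In all 10 panels both WT-labelled home cage points lie below both KO-labelled home cage points.

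The first comparison asked how the labelled genotypes differed in undisturbed mice. All 10 genes were higher in both KO-labelled home cage libraries than in both WT-labelled ones, and 3 of them, Gfap, Aldoc and Aqp4, passed the test. Differences were tested with limma on log2(FPKM + 1), a scale that understates changes of low genes, with Benjamini-Hochberg adjustment over all 11892 genes and a call at an adjusted p under 0.05. In this comparison 3.57% of all tested genes were called. Over all tested genes, 21.0% were likewise higher in KO-labelled libraries without overlap. The median log2 change of the 10 genes was 0.42, against -0.018 over all tested genes. In bulk tissue, more astrocytes and more RNA per astrocyte cannot be told apart.

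Gfap (chr11:102887336-102897200 in GRCm38) read 13.25 and 14.68 FPKM under the WT label and 29.79 and 39.74 FPKM under the KO label in the home cage. Its group means were 13.96 ± 1.01 and 34.77 ± 7.04 FPKM (SD, n = 2 each). The lower KO-labelled library was thus well above both WT-labelled libraries. The log2 difference was 1.24 (SE 0.19, limma adjusted p = 0.011), a 2.37-fold change on the scale tested. Aldoc (chr11:78323073-78327781) read 65.61 and 71.3 FPKM under the WT label and 108.85 and 114.76 FPKM under the KO label, and its groups were narrow against the gap between them. Its log2 difference was 0.70 (SE 0.13, limma adjusted p = 0.0194). Aqp4 read 3.72 and 4.23 FPKM against 6.16 and 7.32 FPKM, again without overlap. Its log2 difference was 0.64 (SE 0.13, limma adjusted p = 0.0265).

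The other 7 genes missed the threshold in the home cage. Slc1a3 came nearest, with 27.73 and 32.39 FPKM under the WT label, 38.71 and 52.55 FPKM under the KO label, and a log2 difference of 0.57 (SE 0.14, limma adjusted p = 0.0526). It passed with median-of-ratios size factors (adjusted p = 0.0385). Slc1a2, the transporter that clears most synaptic glutamate in the forebrain, read 26.16 and 30.9 FPKM against 33.59 and 47.59 FPKM, and its KO-labelled libraries were further apart than the group means of 28.53 and 40.59 FPKM. Its log2 difference was 0.48 with a 95% interval from 0.04 to 0.91 (limma adjusted p = 0.223). The connexins were closer together, with Gja1 at 10.88 and 10.27 FPKM against 12.84 and 13.68 FPKM, and Gjb6 at 4.95 and 6.15 FPKM against 6.79 and 6.45 FPKM. Their log2 differences of 0.30 and 0.22 had adjusted p-values of 0.183 and 0.429 by limma. S100b read 21.01 and 20.21 FPKM against 26.99 and 24.8 FPKM, Aldh1l1 read 2.41 and 2.46 FPKM against 2.92 and 3.17 FPKM, and Sox9 read 2.43 and 1.94 FPKM against 2.88 and 3.24 FPKM. Each of these 3 was non-overlapping, with log2 differences of 0.31, 0.24 and 0.35 and limma adjusted p-values of 0.181, 0.303 and 0.197.

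The home cage calls rested on few libraries. Without WT-labelled home cage library 1, which is also the one home cage library with high choroid plexus markers, none of the 10 genes was called, and the log2 differences of Gfap, Aldoc and Aqp4 were 1.18, 0.64 and 0.56. Without KO-labelled home cage library 2 none was called either, with 1.04, 0.66 and 0.53. Leaving out WT-labelled library 2 ended the Aqp4 call (0.71, adjusted p = 0.0576). Without all 3 libraries with choroid plexus RNA, the differences of Gfap, Aldoc and Aqp4 were 1.18, 0.64 and 0.56, with limma adjusted p-values of 0.0611, 0.274 and 0.332. Leaving out 1 home cage library leaves 1 group with a single library, and leaving out the 3 leaves 2 such groups. A single library is assumed to vary like the others. With no filter on low values none of the 3 was called (adjusted p = 0.055, 0.0626 and 0.0719).

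Markers of other cell types were read beside these values. Microglial markers were higher in the KO-labelled home cage libraries for 9 of 10 tested genes, 6 with an unadjusted p under 0.05 by limma. P2ry12 and C1qc were called, with log2 changes of 0.57 and 0.63. The median log2 change of the microglial markers was 0.41, against 0.42 for the 10 astrocyte genes. Of those 10 astrocyte genes, 8 had an unadjusted p under 0.05 by limma. Summed microglial markers lay at 65.51 to 72.5 FPKM under the WT label and 87.63 to 94.62 FPKM under the KO label. Oligodendrocyte markers were higher for 10 of 10 genes with none called by limma (2 with an unadjusted p under 0.05), and summed to 153 to 180.9 FPKM against 207.6 to 246.6 FPKM. Endothelial and pericyte markers were higher for 7 of 8 tested genes, 3 with an unadjusted p under 0.05 by limma, and Ly6c1 was called (0.56). Neuronal markers were higher for 5 of 10 with none called by limma (3 with an unadjusted p under 0.05). They summed to 3752 to 3803 FPKM against 3981 to 4141 FPKM. Among all 11892 tested genes, 2182 had an unadjusted p under 0.05 by limma in this comparison. Summed markers of the other glia were thus also higher under the KO label, and the part of cell make-up in the result was not tested.

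**Figure D2:**
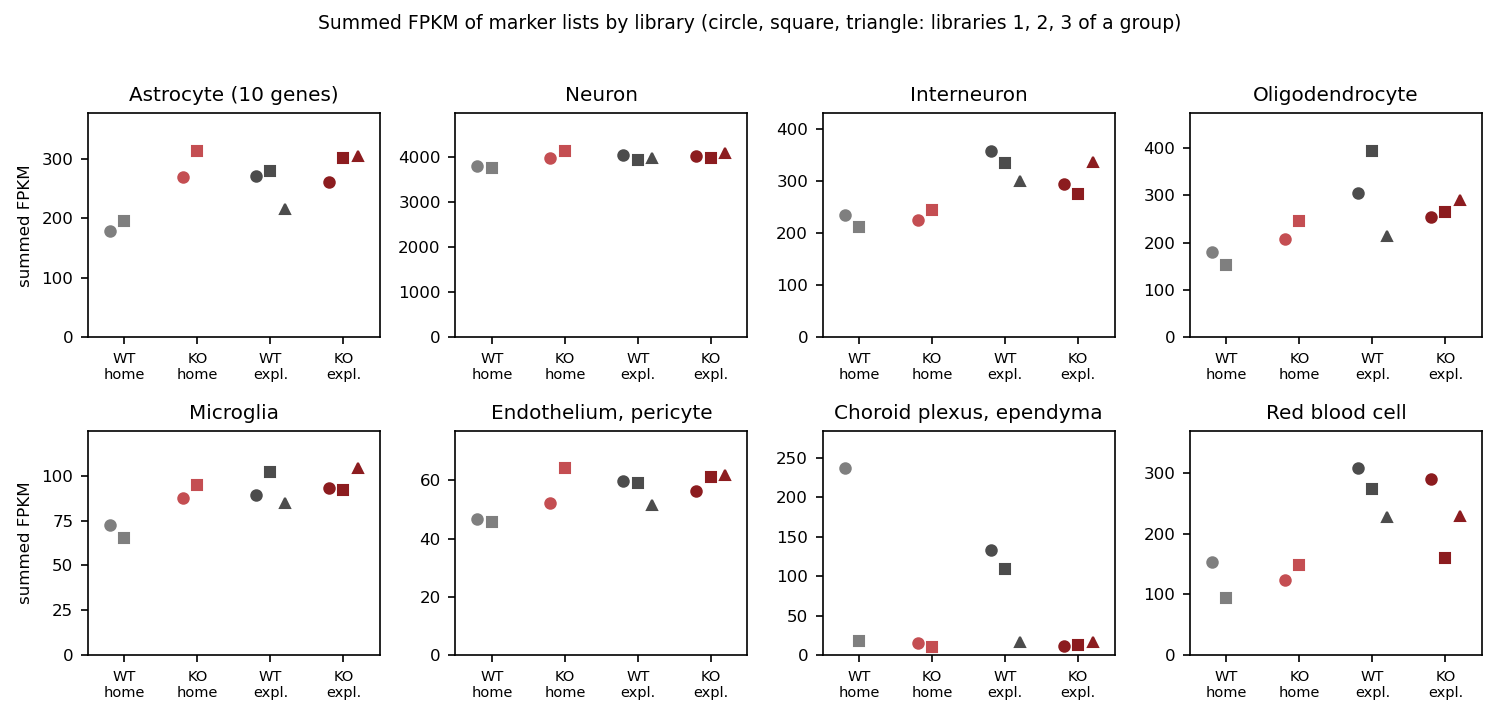
Summed FPKM of marker lists (vertical axes from 0) in the 10 libraries, by genotype label and environment; points are libraries. Astrocyte marker sums run from 178.1 FPKM (home cage WT-labelled library 1) to 313.3 FPKM (home cage KO-labelled library 2), and choroid plexus sums are high in 3 WT-labelled libraries.

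Between the labelled genotypes after exploration, none of the 10 genes was called, against 0.597% of all tested genes. An unadjusted p under 0.05 by limma was reached by 4 of the 10: Aqp4, Gfap, Gjb6 and S100b. Among all 11892 tested genes, 2046 reached it. Aqp4, Gjb6 and S100b were higher in all 3 KO-labelled libraries than in all 3 WT-labelled ones, and 11.4% of all tested genes were higher in this way. The median log2 difference of the 10 genes was 0.15, against -0.015 over all tested genes.

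Aqp4 read 4.9, 5.48 and 4.11 FPKM in the WT-labelled and 6.46, 6.31 and 6.47 FPKM in the KO-labelled exploration libraries. Its KO-labelled libraries were almost equal, and the log2 difference was 0.35 (SE 0.10, limma adjusted p = 0.137). Gjb6 read 5.8, 7.38 and 6.5 FPKM against 7.88, 8.14 and 9.87 FPKM, a log2 difference of 0.35 (SE 0.11, limma adjusted p = 0.161). S100b read 30.36, 32.06 and 23.89 FPKM against 35.64, 36.04 and 34.05 FPKM, a log2 difference of 0.29 (SE 0.10, limma adjusted p = 0.167). Gfap overlapped between the labels, with 25.21, 26.75 and 17.08 FPKM against 25.95, 30.89 and 30.8 FPKM. Its log2 difference was 0.35 with a 95% interval from 0.02 to 0.69 (limma adjusted p = 0.271), and library 3 was the low one of the WT-labelled group.

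For the remaining 6 genes the exploration groups overlapped and the log2 differences lay between -0.02 (Sox9) and 0.16 (Slc1a3). Slc1a2 read 40.61, 40.76 and 29.81 FPKM against 31.06, 42.26 and 42.95 FPKM, with 1 low library under each label. Slc1a3 read 40.01, 37.87 and 31.85 FPKM against 40.42, 43.97 and 38.53 FPKM. Aldoc, called in the home cage, read 103.03, 108.12 and 84.03 FPKM against 95.19, 111.5 and 119.52 FPKM, with overlapping ranges. Gja1 read 15.19, 14.91 and 13.07 FPKM against 12.98, 15.76 and 16.09 FPKM. Aldh1l1 read 3.56, 3.34 and 2.98 FPKM against 3.34, 3.73 and 3.74 FPKM. Sox9 read 2.62, 2.85 and 2.29 FPKM against 2.19, 2.59 and 2.86 FPKM and was the one gene whose log2 difference was below 0. Its 95% interval ran from -0.26 to 0.23.

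Except for Gjb6, the exploration differences were higher without the 3 libraries with choroid plexus RNA. In that fit WT-labelled library 3 alone stands for its group. Gfap then had a log2 difference of 0.74, Aqp4 and S100b of 0.54, Aldoc of 0.36, and Slc1a2 and Slc1a3 of 0.35. Gjb6 stayed at 0.35. Gja1 (0.17), Aldh1l1 (0.21) and Sox9 (0.10) were the lowest. No gene was called, with limma adjusted p-values from 0.529 to 0.958. The median of the 10 genes in this fit was 0.35 after exploration and 0.41 in the home cage.

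**Figure D3:**
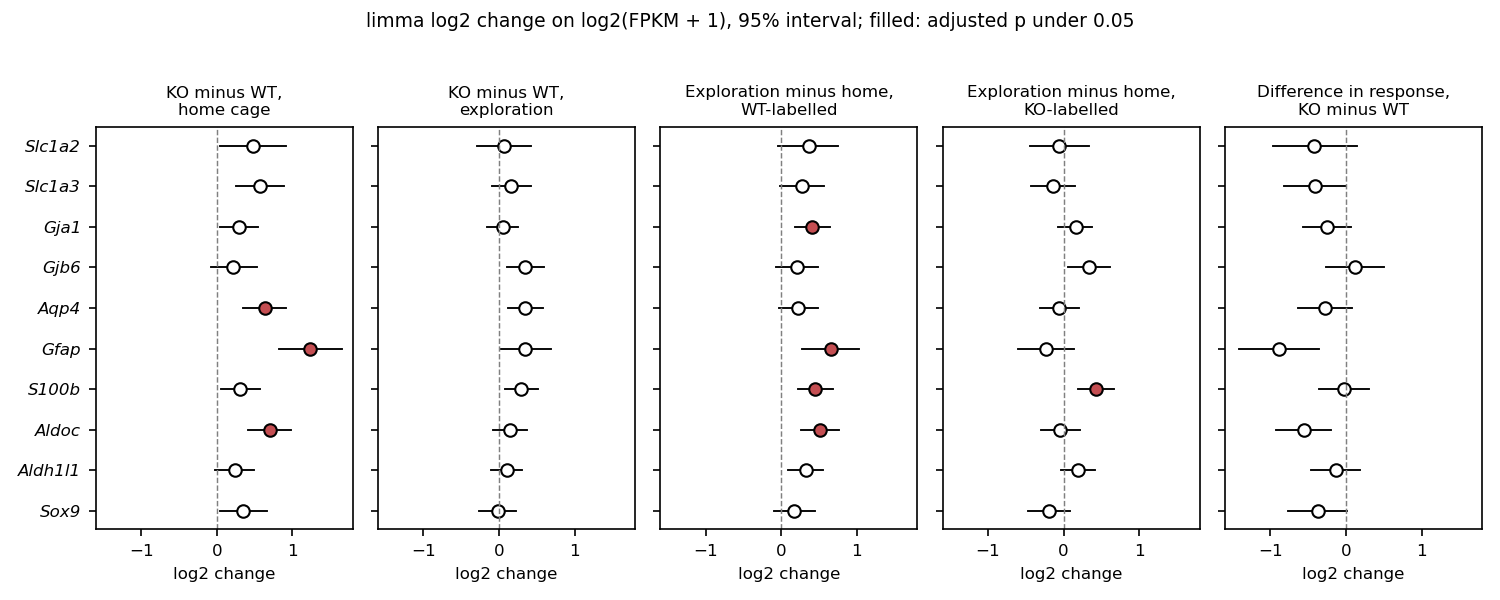
Log2 change of each gene on the log2(FPKM + 1) scale (horizontal axis) in the 5 comparisons, with 95% intervals from limma; filled points have an adjusted p under 0.05. Filled points are Gfap, Aldoc and Aqp4 for the home cage genotype comparison, Gfap, Aldoc, S100b and Gja1 for environment in WT-labelled mice, and S100b for environment in KO-labelled mice.

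Exploration was then compared with the home cage within each label. In WT-labelled mice 4 of the 10 genes rose, Gfap, Aldoc, S100b and Gja1, against 6.31% of all tested genes called. All 10 log2 differences were positive, with a median of 0.34 against -0.02 over all tested genes. Gfap, Aldoc, S100b, Gja1 and Aldh1l1 were higher in all 3 exploration libraries than in both home cage libraries, as were 19.7% of all tested genes. This comparison uses the same WT-labelled home cage libraries as the first one, so they are not independent.

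The per-library values given above place the change. Gfap went from 13.25 and 14.68 FPKM to between 17.08 and 26.75 FPKM, a log2 change of 0.66 (SE 0.17, limma adjusted p = 0.0439). Aldoc went from 68.45 ± 4.02 (SD, n = 2) to 98.39 ± 12.7 FPKM (SD, n = 3), a log2 change of 0.51 (SE 0.12, limma adjusted p = 0.0266). S100b (chr10:76253836-76261319) went from 20.61 ± 0.566 (SD, n = 2) to 28.77 ± 4.31 FPKM (SD, n = 3), a log2 change of 0.45 (SE 0.11, limma adjusted p = 0.032). Gja1 (chr10:56377300-56390419) went from 10.57 ± 0.431 (SD, n = 2) to 14.39 ± 1.15 FPKM (SD, n = 3), a log2 change of 0.41 (SE 0.10, limma adjusted p = 0.0401). In Gfap, Aldoc and S100b the spread after exploration came mainly from library 3, which was the low one. Aldh1l1 missed the threshold at a log2 change of 0.32 (limma adjusted p = 0.0923). The other 5 genes had log2 changes between 0.17 (Sox9) and 0.36 (Slc1a2), with adjusted p-values of 0.245 or more by limma.

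These 4 calls were each lost when WT-labelled home cage library 1 or 2, or exploration library 1 or 2, was left out, and 3 of them also without KO-labelled exploration library 2, when only Aldoc was called. Without the 3 libraries with choroid plexus RNA, the log2 changes of Gfap, Aldoc, S100b and Gja1 were 0.21, 0.23, 0.23 and 0.32, with limma adjusted p-values from 0.648 to 0.798. Those of Aqp4, Slc1a2 and Slc1a3 were -0.03, -0.05 and -0.02. The Gfap call was also lost without the variance trend (adjusted p = 0.0591), and all 4 with no filter on low values (0.0625 to 0.099). The fit without the 3 libraries compares a single home cage with a single exploration library. Oligodendrocyte markers moved with the astrocyte genes here, with 5 of 10 called higher, among them Mobp (log2 change 1.02) and Mbp (0.95), and summed levels of 153 to 180.9 FPKM in the home cage and 214.7 to 394.4 FPKM after exploration. Microglial markers did so too, with 4 of 10 called higher. Of 4 tested red blood cell markers 3 were called higher, and the interneuron marker Sst rose by 1.02. Ribosomal RNA separated the blocks: Rn18s lay between 1714.68 and 2398.35 FPKM in the home cage libraries and between 5.69 and 10.56 FPKM after exploration. The part of cell make-up and of RNA selection in the result was not tested.

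In KO-labelled mice S100b alone rose after exploration, while 28.6% of all tested genes were called. It read 26.99 and 24.8 FPKM in the home cage and 35.64, 36.04 and 34.05 FPKM after exploration, a log2 change of 0.43 (SE 0.11, limma adjusted p = 0.0141). The groups did not overlap, the 3 libraries with choroid plexus RNA are in neither of them, and the call was lost without home cage library 2 (0.37, adjusted p = 0.145). Aldh1l1, Gjb6 and S100b were higher in every exploration library than in both home cage libraries, as were 22.2% of all tested genes. Gjb6 had a log2 change of 0.33 (SE 0.13, limma adjusted p = 0.0672). The median change of the 10 genes was -0.05, against -0.041 over all tested genes, so the share called and the median were both near or below the background. Gfap read 29.79 and 39.74 FPKM in the home cage and 25.95, 30.89 and 30.8 FPKM after exploration, a log2 change of -0.23 with a 95% interval from -0.61 to 0.14. Sox9 was lower in all 3 exploration libraries than in both home cage libraries, as were 29.9% of all tested genes. Its log2 change was -0.20 (limma adjusted p = 0.258).

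The difference in response, KO-labelled less WT-labelled, tests whether exploration moved a gene differently under the 2 labels. None of the 10 genes was called and 0.875% of all tested genes were. An unadjusted p under 0.05 by limma was found for 3 of the 10, Gfap, Aldoc and Slc1a3. Among all 11892 tested genes, 1915 had such a p. Gfap had the largest difference at -0.89 (SE 0.24, limma adjusted p = 0.0926), followed by Aldoc at -0.56 (SE 0.16, limma adjusted p = 0.114). Leaving out KO-labelled home cage library 1, or WT-labelled exploration library 3, brought the Gfap difference past the threshold (-1.09 in both, adjusted p = 0.0475 and 0.0464). Over all 10 fits that left out 1 library it ran from -1.09 to -0.69, with limma adjusted p-values up to 0.358 (without KO-labelled home cage library 2). Without the 3 libraries with choroid plexus RNA it was -0.44 and that of Aldoc was -0.28. In the same fit Slc1a3 was at -0.11, Aqp4 at -0.02 and Slc1a2 at -0.01, against -0.41, -0.28 and -0.42 with all libraries, and the adjusted p was 1.0 for each of the 10 genes. The difference was below 0 for 9 of the 10 genes, with a median of -0.33 against 0.004 over all tested genes. S100b was near 0 at -0.02, with a 95% interval from -0.35 to 0.31, and Gjb6 was the one gene above 0 at 0.12, with an interval from -0.26 to 0.51. The 95% interval, which is not adjusted for the number of genes, ran from -1.42 to -0.36 for Gfap and from -0.92 to -0.20 for Aldoc.

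Within groups the genes also varied together. After subtracting each group's mean, 43 of the 45 pairs of genes had a positive Pearson r over the 10 libraries, with a median of 0.61. The 2 exceptions both involved Gjb6, with Slc1a3 (-0.10) and with S100b (-0.02). Gfap followed the mean of the other 9 genes most closely (r = 0.98), then Aldoc and Slc1a2 (0.93 each), and Gjb6 least (0.23). These values are a description: all genes of a library share its dissection and its FPKM scaling, and 4 group means were removed from 10 values. Outside the 10 genes, the 5 whose within-group deviations were most like the mean of the 10, among 8228 tested genes with a mean of at least 5 FPKM, were Pnmal1 (r = 1.00), Plod3 and Stk4 (0.98 each), and Cldn5 and Fam13b (0.97 each). A within-group value of at least 0.8 was reached by 343 genes. Without subtracting group means, r with the mean of the 10 was 0.55 for Pnmal1, 0.25 for Plod3 and 0.00 for Stk4. For Cldn5 and Fam13b it was 0.81 and 0.57.

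Other astrocyte genes were read from 6 lists by role, with 76 of 87 listed genes tested. In the home cage, 18 were called higher and 1 lower under the KO label, 25.0% of the 76, against 3.57% of all tested genes. The median log2 difference was 0.28, against -0.018 over all tested genes. Of the 76, 65 were positive, against 45.9% of all tested genes. Among glutamate and GABA handling genes, the GABA transporter Slc6a11 rose by 0.53 and the mitochondrial glutamate carrier Slc25a18 by 0.69 on the log2 scale, 2 of 9 tested. The potassium channel Kcnj16 (0.80) and Mlc1 (0.48), a membrane protein of astrocyte endfeet, rose among 13 ion, water and pH genes. The fatty acid binding protein Fabp7 (0.86) alone rose among 17 metabolic genes. Of 12 receptor and signalling genes 5 rose, among them the sphingosine phosphate receptor S1pr1 (0.45), Ndrg2 (0.69) and the glutamate receptor Grm3 (0.82). Of 12 secreted and matrix genes 5 rose, among them Sparc (0.94) and Sparcl1 (0.71), which encode matricellular proteins, while the proteoglycan Bcan fell by 0.80. The transcription factors Lhx2 (0.78), Hes5 (0.94) and Dbx2 (0.62) rose among 13. After exploration a single gene of the 76 was called between labels, the carbonic anhydrase Car2 (0.44, limma adjusted p = 0.0441), which is also strong in oligodendrocytes. Its call was kept in 3 of the 10 fits that each left out 1 library.

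Within WT-labelled mice the median log2 change with exploration was 0.26, against -0.02 over all tested genes. Against 6.31% of all tested genes, 15.8% of the 76 were called, 11 higher and 1 lower. They were Slc25a18 (0.57), Mlc1 (0.39), Fabp7 (0.70), the metallothionein Mt2 (0.51), the glycogen-targeting phosphatase subunit Ppp1r3c (0.56), Ndrg2 (0.66), S1pr1 (0.34), Gpr37l1 (0.42), Sparc (0.64), the apolipoprotein Apoe (0.50) and the protease inhibitor Cst3 (0.40), while Hes1 fell by 0.70. Within KO-labelled mice there were 9 calls in each direction, 23.7% of the 76, below the 28.6% called among all tested genes, and the median of -0.03 was near that of all genes. The named genes below are therefore given as values, not as a pattern of these lists. Car2 (1.15), Aldh1a1 (0.94), the claudin Cldn10 (0.69), Bcan (0.52), the neurotensin receptor Ntsr2 (0.46), Ldhb (0.42) and Glud1 (0.21) rose. Hes5 (-1.33), Lhx2 (-0.66), Slc6a11 (-0.63), Grm3 (-0.63), Fabp7 (-0.59), Sparcl1 (-0.59), Gpc4 (-0.53) and Nfix (-0.53) fell. In the difference in response 1 gene was called above 0 and 5 below, 7.89% of the 76, against 0.875% of all tested genes. As for the 10 marker genes, calls of the named genes of these and the following lists depended on the filter and on single libraries. With no filter on low values, 3 of 18 home cage calls and 7 of 16 calls for environment in WT-labelled mice were kept. Of 18 home cage calls 2 were kept without WT-labelled library 1, 1 without KO-labelled library 2 and 2 without the 3 libraries with choroid plexus RNA. Between 9 and 11 of the 18 were kept without WT-labelled home cage library 2, WT-labelled exploration library 1 or 2, or KO-labelled exploration library 2. Of 16 calls for environment in WT-labelled mice, 2 to 4 were kept when home cage library 1 or 2 or exploration library 1 or 2 was left out, 9 without KO-labelled exploration library 2, 10 without WT-labelled exploration library 3, and 0 without the 3 libraries with choroid plexus RNA. Of 20 in KO-labelled mice, 7 were kept without home cage library 2.

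**Figure D4:**
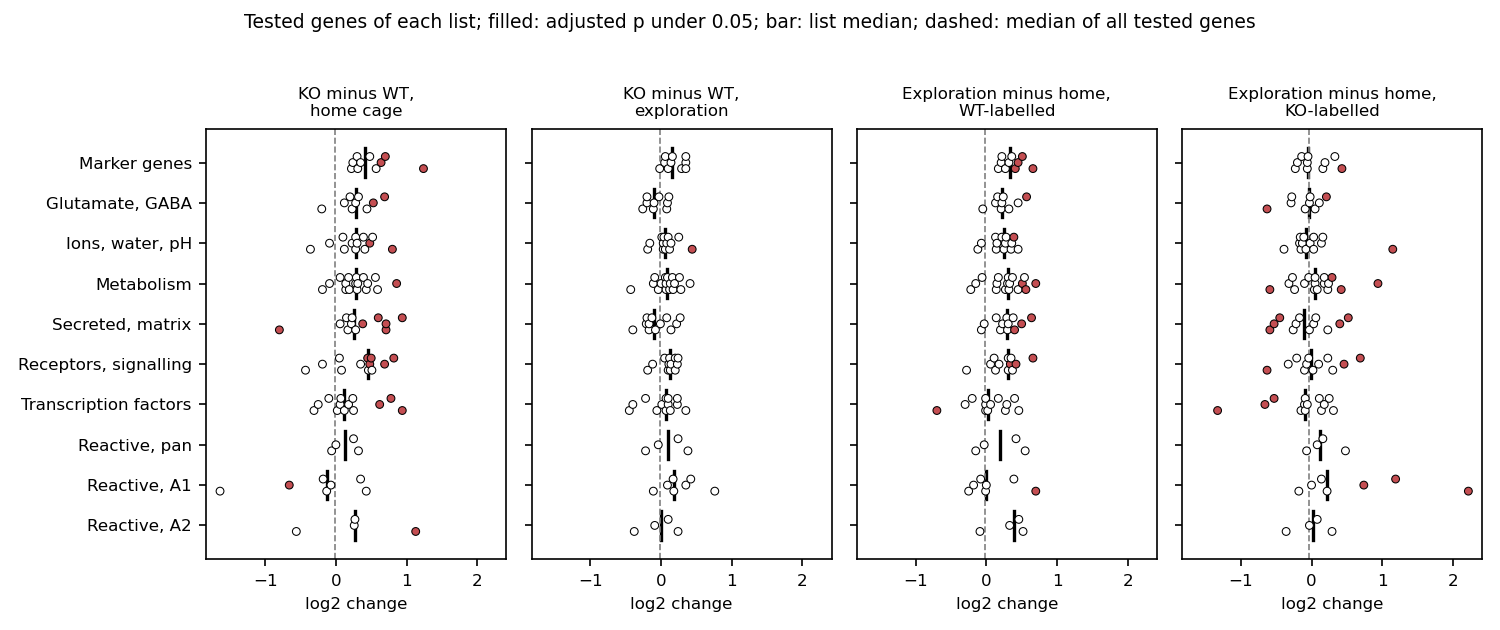
Log2 change on the log2(FPKM + 1) scale (horizontal axis) of the tested genes of each list in 4 comparisons; filled points have an adjusted p under 0.05 by limma, bars are list medians and the dashed line is the median of all tested genes. In the home cage genotype panel the medians of the astrocyte lists lie to the right of the dashed line.

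Families of the marker genes were compared by the same fit. Of 15 other entries with an S100 symbol 6 were tested. S100pbp, counted among the 6, is not itself an S100 protein, and S100a10 is counted with the A2 genes below. S100a1 and S100a16 rose in the KO-labelled home cage libraries by 1.01 and 0.76 on the log2 scale (limma adjusted p = 0.00384 and 0.011). S100a1 stood at 19.1 ± 1.67 FPKM under the WT label and 39.5 ± 2.54 FPKM under the KO label in the home cage (SD, n = 2 each). Both also rose with exploration in WT-labelled mice, by 0.72 and 0.71, as did S100a13 by 0.56, and S100a11 fell with exploration in KO-labelled mice by 0.89. Of 17 other connexins 4 reached the test and none was called in any comparison by limma, with 1 at an unadjusted p under 0.05 for environment in WT-labelled mice, 2 in KO-labelled mice and 0 elsewhere. The tested one with the highest home cage level, Gjc3 of oligodendrocytes, stood at 3.08 ± 0.0212 FPKM in WT-labelled home cage libraries (SD, n = 2). Of the other glutamate and neutral amino acid transporters of the Slc1 family, 3 of 5 were tested, and 1 call was made: Slc1a6 fell by 0.26 with exploration in KO-labelled mice (limma adjusted p = 0.0411). The neuronal transporter Slc1a1 had a home cage log2 difference of -0.10 (limma adjusted p = 0.619).

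Genes used to describe reactive astrocytes were read because Gfap is the best known of them. Of 12 genes common to reactive states, 4 were tested and none was called in any comparison by limma, with 1 at an unadjusted p under 0.05 for environment in WT-labelled mice and 0 elsewhere. Vim, the other main filament of reactive astrocytes, stood at 2.41 ± 0.332 FPKM under the WT label and 3.09 ± 0.962 FPKM under the KO label in the home cage (SD, n = 2 each), with a log2 difference of 0.25 (limma adjusted p = 0.509). Serpina3n stood at 76.2 ± 8.71 and 72.8 ± 3 FPKM in the same groups, and Lcn2 was listed at 0 in all 4 home cage libraries. Of 12 genes of the state called A1, 7 were tested, and H2-D1 fell by 0.66 under the KO label in the home cage (limma adjusted p = 0.0186). With exploration in KO-labelled mice H2-D1 (0.74), H2-T23 (1.19) and Amigo2 (2.22) rose, and H2-T23 rose by 0.70 in WT-labelled mice. Amigo2 went from 1.24 ± 0.481 (SD, n = 2) to 10.2 ± 5.88 FPKM (SD, n = 3) under the KO label. Under the WT label Amigo2 stood at 8.95 ± 10.1 FPKM in the home cage (SD, n = 2), an SD above the mean. It stood at 5.13 ± 1.04 FPKM after exploration under that label (SD, n = 3). Of 12 genes of the state called A2, 4 were tested, and S100a10 rose by 1.13 under the KO label in the home cage (limma adjusted p = 0.0342). With so few of these genes tested, the counts are too small to set against the share of all genes called.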

How the data were processed

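Values were read from the table the authors deposited, which gives FPKM per gene and library. The submitters' processing notes name HISAT, StringTie, GATK, Bowtie2 and RSEM and the builds GRCm38 and mm10, with no versions or roles. Reads were paired, 100 bp, per the labels. Whether the table's 2 blocks were normalized together, and whether counting used strand, is not given in the sources used here. The blocks (19156 and 18257 genes) were joined on the gene ID. FPKM are not counts, so limma 3.58.1 in R 4.3.3 was used on log2(FPKM + 1), with a variance trend, 1 mean per group over all 10 libraries, 6 residual and 5.71 prior degrees of freedom, and a filter of 1 FPKM in 2 libraries. The script was tested on simulated data. Depth was estimated from low values with transcript lengths less 100 nt (17720000 to 18920000 fragments with no offset). All 10 genes are always named, and from each other list up to 3 called genes with the smallest adjusted p per comparison. A gene that this rule names is not reported here. H2-T23, Amigo2 and other list genes follow that rule; Vim, Serpina3n, Lcn2, Gjc3 and Slc1a1 are named for their role. The members and the gene lists were chosen with earlier results of these data known. The alternatives tried were no filter on low values, a stricter one of 5 FPKM, 0.1 in place of 1 as pseudocount, median-of-ratios size factors, no variance trend, only the groups compared, and leaving out each library. The 6 learning condition samples, and a promoter for the remaining genes, were not used here. Motif positions come from RefSeq windows of GRCm38.p6.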

Additional observations from a re-analysis of the deposited data

Results flagged for a closer look

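The response to exploration differed between the labels, by limma's test of the difference itself, for 9 genes of the lists and for none of the 10 marker genes. Values are KO-labelled less WT-labelled on the log2(FPKM + 1) scale. The difference was below 0 for the GABA transporter Slc6a11 (-0.79), the fatty acid binding protein Fabp7 (-1.29), the matricellular protein Sparcl1 (-0.88), the glypican Gpc4 (-0.91), the Notch target Hes5 (-1.39), S100a16 (-0.76) and S100a1 (-0.80). It was above 0 for the carbonic anhydrase Car2 (0.80) and the class I histocompatibility gene H2-D1 (0.75). The limma adjusted p was 0.0496 for each of the 9, just inside the threshold. Fabp7 stood at 3.47 ± 0.771 and 6.22 ± 0.502 FPKM in WT-labelled home cage and exploration libraries, and at 7.19 ± 2.14 and 4.39 ± 0.727 FPKM in KO-labelled ones (SD, n = 2 in the home cage and 3 after exploration). All 9 calls were lost when any 1 of 6 libraries was left out: home cage WT-labelled library 1 or KO-labelled library 2, or exploration WT-labelled library 1 or 2 or KO-labelled library 2 or 3. They were also lost with a pseudocount of 0.1, with no filter, with a filter of 5 FPKM, with no variance trend and without the 3 libraries with choroid plexus RNA. All 9 were kept with size factors. Each environment sits in 1 block of the table, so a block difference that acts unequally on the labels cannot be told apart from a response.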

How the results depend on the processing

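Among all tested genes, 425, 71, 750, 3400 and 104 were called for genotype in the home cage, genotype after exploration, environment in WT-labelled mice, environment in KO-labelled mice and the difference in response. With no filter on low values 47 were called for home cage genotype, 16 for exploration genotype and 0 for the difference, and 0 of the 10 marker genes for home cage genotype and for environment in WT-labelled mice. No variance trend gave 37 for exploration genotype and 0 for the difference. A pseudocount of 0.1 gave 0 for the difference. A filter of 5 FPKM gave 492 for environment in WT-labelled mice and 68 for the difference. Only the groups compared gave 37 for exploration genotype, 1710 for environment in WT-labelled mice and 1700 in KO-labelled mice. Without the 3 libraries with choroid plexus RNA the 5 counts were 15, 4, 39, 1710 and 0, and 0 marker genes were called for home cage genotype and for environment in WT-labelled mice. In that setting the sign turned for Sox9 after exploration between labels (0.10), for Aqp4 (-0.03), Slc1a2 (-0.05) and Slc1a3 (-0.02) for environment in WT-labelled mice, and for S100b in the difference (0.20). None of these was called. The cause was not tested.

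Leaving out 1 library at a time gave 13 to 588, 17 to 104, 84 to 1004, 505 to 3568 and 0 to 436 calls over all genes, and 0 to 4, 0 to 0, 0 to 4, 0 to 1 and 0 to 1 over the marker genes. Signs turned in such fits for uncalled genes near 0. For exploration genotype Slc1a2 ran from -0.08 to 0.21, Gja1 from -0.02 to 0.14 and Sox9 from -0.08 to 0.06. For environment in KO-labelled mice Aqp4 ran from -0.17 to 0.05, Slc1a2 from -0.30 to 0.19, Slc1a3 from -0.35 to 0.08 and Aldoc from -0.12 to 0.05. In the difference Gjb6 ran from -0.01 to 0.26 and S100b from -0.14 to 0.06. Size factors changed no direction among the 10 genes. Depth limits Aldh1l1, Sox9, Aqp4 and Gjb6 most, with at most 215, 249, 283 and 372 fragments in a library. These fragment numbers use the mean length of a gene's listed transcripts, so they are rough where those lengths differ, as for Aqp4. No paired analysis was possible because the columns carry sample codes and no replicate numbers that tie mice across groups.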
